A study of Mus musculus with 2 samples.

Results

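Mural cells of mouse epididymal fat, the pericytes and smooth muscle cells around its blood vessels, were taken from 1 pooled single-cell library of the stromal vascular fraction, the part of fat left when adipocytes are removed after enzymatic digestion. A cell was a member when at least 4 of 9 mural genes (Rgs5, Kcnj8, Abcc9, Notch3, Acta2, Tagln, Myh11, Mylk and Cspg4) each reached 100 CPM (reads of a gene scaled to 1000000 reads of its cell) and the summed level of 6 genes of other cell types (C1qa, C1qb, Cdh5, Lum, Dpt and Upk3b) stayed under 500 CPM. The rule was applied to cells with 1 hashtag call and at most 25% mitochondrial reads. It gave 229 of 10521 cells, 2.18% (exact binomial 95% interval 1.91 to 2.47). The cells were thus chosen by their levels of the 9 and the 6 genes, and the values of the 9 mural genes are given below as a description. The pool held fat from wild-type male C57BL/6J mice on a high-fat diet, given for 8 or for 16 weeks, or on 16 weeks of standard diet. Each cell suspension was marked with a hashtag antibody before pooling, and 9 hashtag populations, A0301 to A0310 without A0306, entered the counts. Which hashtag marked which diet is not given in the sources used here. No comparison of diets was made, and each population stands as 1 sample without a group.

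Mural cells lie on the outer face of capillaries, arterioles and venules, within the basement membrane they share with the endothelium. Arterial and arteriolar smooth muscle cells form rings that contract by phosphorylation of myosin light chain and set vessel width, while pericytes sit singly on capillaries, carry few contractile proteins and hold the KATP channel made of Kcnj8 and Abcc9. Endothelial Pdgfb recruits both through the receptor Pdgfrb, and contact with endothelial Notch ligands keeps them differentiated through Notch3. In fat, perivascular cells have also been studied as a source of adipocyte precursors.

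With a single pool there was no replicate and no test between groups. Differences are given as ratios of summed reads with 1 CPM added to each side, counted from 2-fold upward where a class reached 20 CPM, and intervals cover counting error only. Mural cells had a median of 27022 reads and 2337 genes, the rest of the pool 37719.5 reads and 2805 genes. The deposited table has no values below 6 to 8 reads for Rgs5, Acta2, Tagln, Myh11 and Mylk, so that a 0 of these genes can stand for a few reads. Other genes lack low values in the same way, and ratios with these gaps filled to their limit are given below for several of them.

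The cells carried mural genes that the rule had not used. The summed level of 13 pericyte markers outside the rule, among them Pdgfrb, Higd1b and Rgs4, was 4718 CPM in mural cells and 234 CPM in the rest. It was 624 CPM in fibroblasts and 365 CPM in endothelial cells. Of the 13, P2ry14 (0.870 against 13.2 CPM) and Ebf2 (121 against 135 CPM) were lower in mural cells than in fibroblasts. Smooth muscle markers outside the rule, 15 genes with Cnn1, Myl9 and Des among them, summed to 12436 CPM in mural cells and 549 CPM in the rest. Their sum was 1125 CPM in fibroblasts and 939 CPM in endothelial cells. In T cells, which should lack both, the sums were 11.9 and 42.8 CPM at a median of 15723.5 reads. Over the pooled members the label as mural thus held by other markers, with the exception of 28 cells led by endothelial genes, whose endothelial markers summed to 2223 CPM and whose pericyte markers outside the rule to 2274.5 CPM. Markers of 2 neighbouring cell types were present as well. All 6 endothelial markers (Cdh5, Pecam1, Kdr, Tie1, Egfl7 and Emcn) reached 20 CPM in mural cells, where their sum was 461 CPM against 250 CPM in the rest and 67.1 CPM in T cells. Averaged over cells instead, this sum ran from 121 to 714 CPM over the hashtag populations of mural cells and from 428 to 892 CPM over those of the rest, so that the 2 measures differ in direction. Of the 6 fibroblast markers, 4 reached 20 CPM, with a sum of 455 CPM in mural cells against 8418 CPM in the rest and 139 CPM in T cells, and a range of averages of 259 to 796 CPM over the populations of mural cells. At least 2 endothelial markers were on in 32 mural cells, at least 2 fibroblast markers in 29, and either in 61 (26.6%). Their part in the results was not tested, and the 168 cells without them were analysed again beside each main result. Of the other lists, the lymphatic endothelial markers Prox1 and Mmrn1 and the mesothelial markers Msln and Upk1b were at 0 in mural cells. The summed levels of those lists were 9.14 and 5.80 CPM, that of the T cell list 24.1 CPM, and that of the macrophage list 116 CPM against 4040 CPM in the rest. The endothelial, fibroblast, macrophage and mesothelial lists include the genes of other cell types that the rule kept low. The sums of these lists in mural cells are thus partly set by the rule.

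Part of the members lay at the edge of the rule. Exactly 4 of the 9 genes were on in 48 members (20.96%), and 27 cells had 3 on and met the rule otherwise. The summed level of the 6 genes of other types had a median of 63.1 CPM among members and reached 480 CPM, with 11 members at 400 CPM or more. A further 86 cells had 4 or more of the 9 genes on and 500 CPM or more of the other types, from 510 CPM upward, 10 of them under 600 CPM. In 36 of these 86 cells the leading gene of another type was endothelial Cdh5, and in 32 it was fibroblast Dpt.

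The rule genes were on in different shares of the members. Rgs5, a brake on G protein signalling and the most general mural gene here, was on in 193 of 229 members, Tagln in 172, Myh11 in 169, Mylk in 168, Notch3 in 165 and Acta2 in 157. Abcc9 was on in 125, Cspg4 (the proteoglycan NG2) in 79 and Kcnj8 in 65. Since members were selected on these genes, the pairs are given as a description only. Of the 65 cells with Kcnj8 on, 63 also had Abcc9 on, and of the 157 with Acta2 on, 144 had Tagln on. Channel and contractile genes were on in the same cells in varying shares. Among cells with Kcnj8 on, Acta2 was on in 27.7%, Myh11 in 41.5%, Tagln in 43.1% and Mylk in 61.5%. Among cells with Abcc9 on, Acta2 was on in 44.8%, Myh11 and Tagln each in 58.4% and Mylk in 66.4%.

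Mural cells were typed by 3 of the rule genes. A cell with Myh11 (smooth muscle myosin heavy chain) on and both Kcnj8 and Abcc9 off was called smooth-muscle-type, a cell with either channel gene on and Myh11 off pericyte-type. There were 95 smooth-muscle-type cells, 41.5% of mural cells (exact binomial 95% interval 35.0 to 48.2), and 53 pericyte-type cells, 23.1% (17.8 to 29.2). In 74 cells, 32.3%, both sides were on, and in 7 cells neither was. Myh11 has no values under 7 reads in the table, so a pericyte-type cell may hold up to 6 reads of it. Acta2 and Rgs5 were not used for typing but belong to the rule, so that their levels are partly set by the choice of members. Acta2 was at 10653 CPM in smooth-muscle-type cells, 2008 CPM in cells with both sides on and 347 CPM in pericyte-type cells. Rgs5 was at 5502 CPM in smooth-muscle-type and 7491 CPM in pericyte-type cells. The medians were 28531 reads and 8.01% mitochondrial reads in smooth-muscle-type cells, against 20894 reads and 5.05% in pericyte-type cells. Endothelial markers summed to 484 CPM in smooth-muscle-type and 510 CPM in pericyte-type cells, and fibroblast markers to 254 and 747 CPM in the same order. Smooth muscle markers outside the rule summed to 20182 and 3913 CPM, and pericyte markers outside the rule to 3719 and 5817 CPM, within 2-fold. Of these pericyte markers, Rgs4, Gucy1b1 and Colec11 (71.4 against 7.32 CPM) were higher in smooth-muscle-type cells, and the others in pericyte-type cells.

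**Figure D1:**
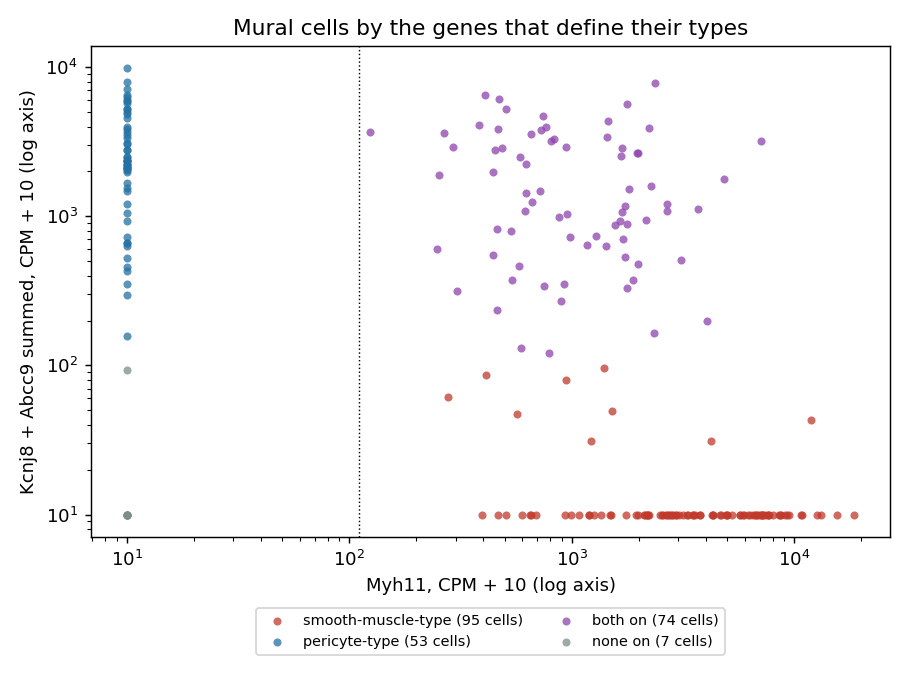
Level of Myh11 (horizontal, CPM + 10, log axis) against the summed level of Kcnj8 and Abcc9 (vertical, CPM + 10, log axis) in each of the 229 mural cells, coloured by type, with a dotted line at 100 CPM of Myh11. The 95 smooth-muscle-type cells lie along the bottom, the 53 pericyte-type cells along the left edge and the 74 cells with both sides on between them.

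By the median of each list, contractile genes stood highest above the rest of the pool. Against endothelial and fibroblast cells their medians were lower, at 9.26-fold and 13.3-fold. Both were below those of the ion channels and pumps (14.6-fold and 19.0-fold). Of the 21 contractile list members outside the rule, 20 reached 20 CPM and all 20 were at least 2-fold higher in mural cells than in the rest, with a median of 22.03-fold, against 1.13-fold over all genes. Of all 8461 genes tested, 19.3% were at least 2-fold higher in mural cells and 1269 genes at least 2-fold lower. Myl9 (GRCm38 chr2:156775420-156781658, plus strand), the regulatory light chain of smooth muscle myosin, was at 1446, 3168 and 5681 CPM (lowest, median and highest of 9 hashtag populations) in mural cells and at 11.6, 18.1 and 48.2 CPM in the rest, without overlap. Over the pool it was at 3128 CPM against 21.1 CPM, a 141-fold difference that came to 29.9-fold with the gaps filled. The intermediate filament gene Des was at 617 CPM against 19.98 CPM, the tropomyosins Tpm1 and Tpm2 at 2117 and 1885 CPM against 128 and 32.4 CPM, and Cald1, which binds tropomyosin and actin, at 2332 CPM against 263 CPM. The smallest differences of the list were those of Tpm4 (2.15-fold) and Myl6 (2.35-fold), forms that are not particular to muscle, at 273 and 1042 CPM even in T cells. Without the 61 cells with endothelial or fibroblast markers, 19 of 20 genes were 2-fold higher, Tpm4 being 1.91-fold higher.

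Within the mural cells the contractile list divided by type. Of 20 genes, 16 were at least 2-fold higher in smooth-muscle-type than in pericyte-type cells and none lower, with a median of 4.70-fold, also with the genes at 0 in pericyte-type cells set to their bound. Of all genes tested, 14.4% of 8342 were at least 2-fold higher and 25.4% at least 2-fold lower in smooth-muscle-type cells. Pln (chr10:53337667-53345987, plus strand), the inhibitor of the sarcoplasmic calcium pump, was at 328 CPM in smooth-muscle-type cells and at 0 in pericyte-type cells. Cnn1, calponin of differentiated smooth muscle, was at 303.2 CPM (Poisson 95% interval 284 to 323) in smooth-muscle-type cells and at 0 in pericyte-type cells. Set against the floor of 3 reads in the whole pericyte-type class, 2.19 CPM, Pln was at least 149-fold and Cnn1 at least 138-fold higher. At least 6 reads of Pln were found in 28.4% of the smooth-muscle-type cells and any read in 35.8%. Tpm2 (3444 CPM against 308.7 CPM), Mustn1 (1347 CPM against 15.4 CPM) and, outside the list, the filament gene Synm (256 CPM against 0) followed the same order. Ppp1r14a, the inhibitor of myosin phosphatase, was within 2-fold, at 352 CPM in smooth-muscle-type and 194 CPM in pericyte-type cells. Without the 61 marked cells 18 of 20 genes were 2-fold higher in smooth-muscle-type cells, Ppp1r14a among them at 2.65-fold, and Tpm4 was lower (ratio 0.472). This left 76 smooth-muscle-type and 32 pericyte-type cells. Over all genes, 1565 were then 2-fold higher in smooth-muscle-type and 2801 in pericyte-type cells, against 1200 and 2117 with the marked cells included.

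Promoter sequence was looked at for the contractile genes, since serum response factor is known to drive many of them through the CArG box. Windows from 250 bases before to 50 after the start site were taken from RefSeq on GRCm38.p6, for 19 of the 21 list genes (22 windows) and 7 of the 9 rule genes. The rule genes Tagln and Myh11 had no window. A CArG box on either strand was found in 3 of the 22 contractile windows, in none of the 7 windows of rule genes and in 535 of 32851 windows of all genes (1.63%). The 3 windows follow, with the CArG box in capitals, since Myl9 is the highest of the list between mural cells and the rest unless gaps are filled, Myl6 is among its least specific members and Vcl, chosen after its values were seen because its window holds the box, encodes vinculin of actin anchors and was at 409 CPM in mural cells and 59.9 CPM in the rest. They lie at chr2:156775214-156775513 on the plus strand (Myl9), chr10:128492960-128493259 on the minus strand (Myl6) and chr14:20929148-20929447 on the plus strand (Vcl), with the box starting 161, 50 and 227 bases before the start site.
Myl9: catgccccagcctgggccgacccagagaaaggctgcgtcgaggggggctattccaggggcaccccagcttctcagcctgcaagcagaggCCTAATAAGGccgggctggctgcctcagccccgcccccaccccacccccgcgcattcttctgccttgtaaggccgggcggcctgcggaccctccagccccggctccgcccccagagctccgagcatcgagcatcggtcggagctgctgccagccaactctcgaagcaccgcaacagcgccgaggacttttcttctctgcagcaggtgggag
Myl6: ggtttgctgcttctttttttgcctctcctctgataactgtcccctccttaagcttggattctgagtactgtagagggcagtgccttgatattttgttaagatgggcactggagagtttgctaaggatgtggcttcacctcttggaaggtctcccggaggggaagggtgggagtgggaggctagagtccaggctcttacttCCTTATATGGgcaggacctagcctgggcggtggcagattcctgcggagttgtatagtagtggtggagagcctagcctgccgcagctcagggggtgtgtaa
Vcl: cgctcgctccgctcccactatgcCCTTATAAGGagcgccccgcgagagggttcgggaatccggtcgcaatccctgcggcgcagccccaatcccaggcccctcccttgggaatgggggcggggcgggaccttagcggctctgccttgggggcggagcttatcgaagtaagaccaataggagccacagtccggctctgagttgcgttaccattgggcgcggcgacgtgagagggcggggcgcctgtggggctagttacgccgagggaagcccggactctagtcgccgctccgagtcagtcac

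The other motif was TGGGAA, the core that the Notch partner Rbpj binds, counted on both strands. It was found in 25.6% of all windows, in 6 of the 22 contractile windows and in the windows of the rule genes Acta2, Abcc9 and Kcnj8 (3 of 7). The Acta2 window, chr19:34255324-34255623 on the minus strand, is shown because Acta2 separates the types most by level among the rule genes not used for typing. Its TGGGAA, in capitals, starts 27 bases before the start site. It overlaps a form of the CArG box with another base between CC and GG, which was not counted above. Binding of either factor was not tested.
Acta2: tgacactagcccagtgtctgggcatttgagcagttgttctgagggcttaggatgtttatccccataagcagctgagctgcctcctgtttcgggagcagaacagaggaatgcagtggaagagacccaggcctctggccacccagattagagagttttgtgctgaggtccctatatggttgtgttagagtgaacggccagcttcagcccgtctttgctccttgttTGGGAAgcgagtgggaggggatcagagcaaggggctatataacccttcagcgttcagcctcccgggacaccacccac

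Transcription factors of mural cells were mostly higher than in the rest. Of 17 regulators at 20 CPM or more, 12 were at least 2-fold higher, against 19.3% of all genes, and Gata6 lower, with a median of 4.19-fold. Against fibroblast cells 8 of 17 were 2-fold higher and 3 lower (Tcf21, Klf4 and Gata6), where 18.0% and 11.6% of all genes were. Tbx2 (181 CPM against 3.86 CPM), the forkhead gene Foxs1 (105 CPM against 2.55 CPM) and Nr2f2, known as a determinant of veins (241 CPM against 19.8 CPM), were higher in all 9 hashtag populations. Myocd, the coactivator of serum response factor that makes smooth muscle, was at 30.6 CPM in mural cells and 0.300 CPM in the rest. By type, Myocd was at 51.8 CPM in smooth-muscle-type cells and 0 in pericyte-type cells, at least 23.6-fold, and Mef2c at 277 CPM against 66.6 CPM. Tbx18, a marker of the mural lineage, lay on the other side, at 16.6 CPM in smooth-muscle-type and 107 CPM in pericyte-type cells. Klf4, which is known to repress contractile genes, was at 703 CPM in mural cells and 1145 CPM in the rest, within 2-fold. It was nevertheless 5.02-fold higher in smooth-muscle-type cells (1098 CPM) than in pericyte-type cells (218 CPM), 2.57-fold with gaps filled. In all, 5 of 13 regulators were 2-fold higher in smooth-muscle-type and 4 in pericyte-type cells, against 14.4% and 25.4% of all genes. Of the 4, Foxs1, Ebf2 and Prrx1 came within 2-fold in some settings.

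Ion channels and pumps of the list were higher in mural cells throughout. All 14 list members at 20 CPM or more were at least 2-fold higher in mural cells, with a median of 19.2-fold, and 10 of them were higher in each of the 9 populations. Over all genes tested, 19.3% were at least 2-fold higher. The sodium pump subunit Atp1b2 was at 331 CPM against 4.11 CPM, the potassium channel subunit Kcne4 at 146 CPM against 2.80 CPM, and the calcium pump Atp2a2 at 637 CPM against 195 CPM. Single channels were found on 1 side. Kcnk3, a background potassium channel, was at 57.1 CPM in smooth-muscle-type cells and 0 in pericyte-type cells, and the calcium channel Cacna1h at 63.9 CPM against 0. Kcnmb1, the smooth muscle subunit of the large-conductance potassium channel, was at 56.4 CPM in smooth-muscle-type and 1.46 CPM in pericyte-type cells. Of 13 genes, 6 were 2-fold higher in smooth-muscle-type and 2, Kcne4 among them, in pericyte-type cells, against 14.4% and 25.4% of all genes. The ratio of Kcne4, 0.451, came within 2-fold in several settings, up to 0.633 in thinned cells.

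Receptors for vasoactive signals were mostly higher in mural cells than in the rest. Of 13 receptors at 20 CPM or more, 10 were at least 2-fold higher in mural cells, against 19.3% of all genes, and none lower. Against endothelial cells 9 of 15 were 2-fold higher and 6 lower, Calcrl among them, where 13.2% and 13.6% of all genes were. P2rx1, the ATP-gated channel through which sympathetic nerves contract arterioles, was at 24.97, 195 and 279 CPM (lowest, median and highest population) in mural cells and at no more than 0.650 CPM in any population of the rest. It was at 354 CPM (334 to 376) in smooth-muscle-type and 0 in pericyte-type cells, at least 161-fold. Agtr1a, the angiotensin II receptor, lay the other way, at 44.3 CPM in smooth-muscle-type and 237 CPM in pericyte-type cells, in the same direction in all 6 populations with at least 5 cells of each type. The endothelin receptor Ednra was close in both, at 140 CPM in smooth-muscle-type and 90.0 CPM in pericyte-type cells. Its relative Ednrb (174 CPM against 67.3 CPM) was 1.48-fold higher without the cells that carried endothelial or fibroblast markers, and it was higher still in endothelial cells (305.2 CPM). Npr3, counted among the 10 higher than in the rest, lost its difference in several settings, and no direction is given for it. Of 12 receptors, 5 were 2-fold higher in smooth-muscle-type and 2 in pericyte-type cells, against 14.4% and 25.4% of all genes. Without the 61 marked cells the counts were 3 and 2 of 11.

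Genes of the nitric oxide and cyclic GMP pathway, which relaxes vessels, were higher in mural cells than in the rest. Of 14 members of the cyclic nucleotide and G protein list, 13 were at least 2-fold higher in mural cells than in the rest, with a median of 16.0-fold. Over all genes tested, 19.3% were. The subunits of the nitric oxide receptor, Gucy1a1 and Gucy1b1, were at 492 and 399 CPM in mural cells and at 6.77 and 4.44 CPM in the rest. Gucy1a1 was at 373, 476 and 684 CPM (lowest, median and highest population) in mural cells and at 2.62, 6.24 and 15.1 CPM in the rest, without overlap. Between types Gucy1a1 was at 465 CPM in smooth-muscle-type and 489 CPM in pericyte-type cells. Of the 14 genes, 4 were 2-fold higher in smooth-muscle-type cells (Prkg1, Rgs2, Rgs7bp and Mrvi1) and Adcy3 in pericyte-type cells, against 14.4% and 25.4% of all genes. Prkg1, the cyclic GMP-dependent kinase, was at 205 CPM in smooth-muscle-type and 102 CPM in pericyte-type cells, and its substrate Mrvi1 at 171 CPM against 79.0 CPM. Without the 61 marked cells these ratios were 1.45 and 1.28, and that of Rgs2 was 0.872 with gaps filled. Rgs4, a further brake on G protein signalling, was at 1117 CPM in mural cells and 6.56 CPM in the rest, and at 1401 CPM in smooth-muscle-type and 934 CPM in pericyte-type cells. Rgs7bp, which anchors such proteins at the membrane, was at 152 CPM in smooth-muscle-type cells and 0 in pericyte-type cells. Rgs2 was the exception of the list, at 51.9 CPM in mural cells and 576 CPM in the rest, where T cells (1764 CPM) and macrophages (880 CPM) held most of it.

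**Figure D2:**
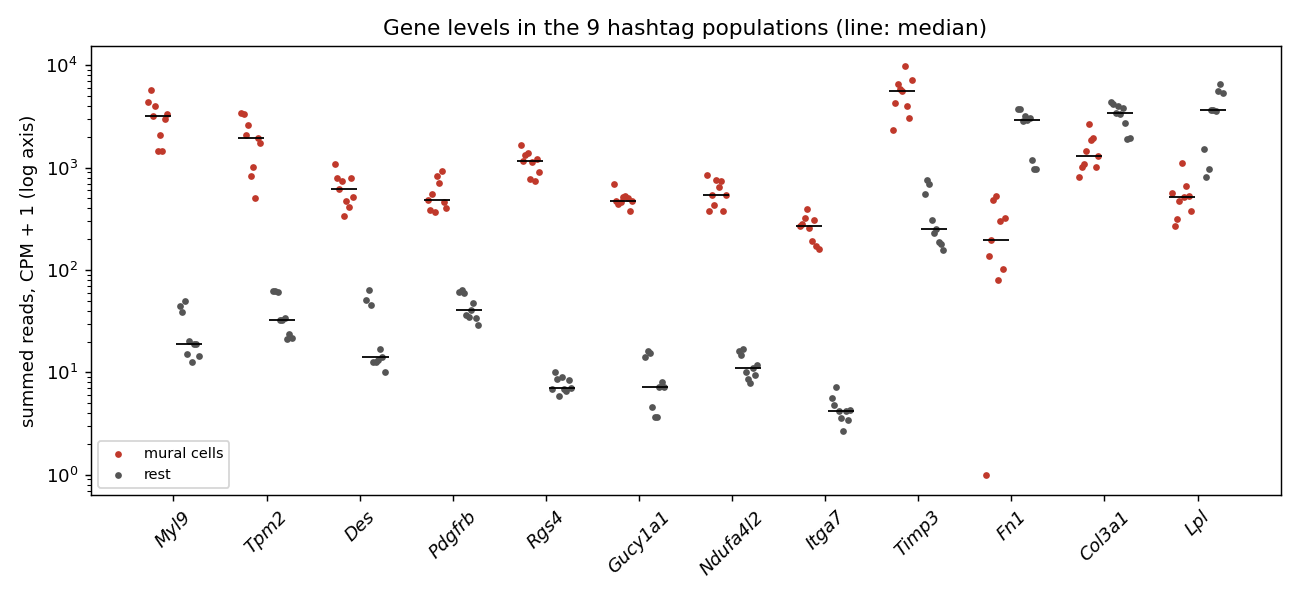
Summed level (CPM + 1, log axis) of 12 genes in mural cells (red, left) and in the rest (grey, right) of each of the 9 hashtag populations, with a line at the median. The first 9 genes are higher in mural cells in every population, for example Myl9 from 1446 CPM upward against at most 48.2 CPM, while Fn1 and Col3a1 are higher in the rest in every population and Lpl likewise.

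Notch genes were 2-fold higher in mural cells than in the rest for 9 of 11 members, against 19.3% of all genes. The target genes Heyl (116 CPM against 3.08 CPM), Hey2 (32.8 CPM against 0.252 CPM), Nrarp (71.1 CPM against 7.59 CPM) and Hes1 (200 CPM against 27.3 CPM) were higher in each of the 9 populations. Rbpj, the shared DNA-binding partner, was lower, at 61.1 CPM in mural cells and 167 CPM in the rest, a ratio that came to 0.513 with every class weighted equally. Against endothelial cells, the nearest source of Notch ligands, the list ran both ways, with 4 of 15 members 2-fold higher in mural cells (Notch2, Jag1, Hey2 and Heyl) and 7 lower, where 13.2% of 8314 genes were higher and 13.6% lower. Notch1 and the ligand Dll4 were at 219 and 179 CPM in endothelial cells and at 94.0 and 18.0 CPM in mural cells. Both lost their 2-fold difference from the rest in several settings, and the ratio of Dll4 was 0.188 without the 61 marked cells. Between types, Nrarp was at 89.3 CPM in smooth-muscle-type and 5.12 CPM in pericyte-type cells, while the Heyl levels of 82.2 and 102 CPM were close. The 2-fold differences of Hes1, Hey1 and Hey2 between types did not last through all settings.

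Genes of signals between vessel cells ran both ways. Against endothelial cells, 7 of 20 were 2-fold higher in mural cells and 8 lower, where 13.2% and 13.6% of all genes were. Pdgfrb was at 370, 484 and 922 CPM (lowest, median and highest population) in mural cells and at 28.3, 39.5 and 62.2 CPM in the rest, without overlap. It was at 27.3 CPM in endothelial and 118 CPM in fibroblast cells. Its ligand Pdgfb was at 52.7 CPM in mural and 249 CPM in endothelial cells. Pericyte-type cells held more Pdgfrb than smooth-muscle-type cells, 953 CPM against 243 CPM, in each of 6 populations. The ligands Pdgfa (335 CPM against 18.2 CPM in the rest) and Tgfb3 (150 CPM against 12.99 CPM) were higher in mural cells in all 9 populations. Tgfb3 was at 262 CPM in smooth-muscle-type and 6.58 CPM in pericyte-type cells, and Tgfb2 at 109 CPM against 0, whereas Tgfb1 lay the other way at 30.0 CPM against 149 CPM. Among the 22 members that reached 20 CPM, mural cells were 2-fold higher for 9, against 19.3% of all genes. Mural cells were 2-fold lower for 5, where 1269 of all 8461 genes tested were lower. The counts were 8 and 4 with gaps filled, and 8 and 7 without the 61 marked cells. Among the lower ones were Igf1 (50.05 CPM against 359 CPM) and Tgfbr2 (74.6 CPM against 231 CPM). Igf1 has no low values in the table, and its ratio of 0.142 came to 0.554 with the gaps filled.

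Against the rest, more genes of the basement membrane and adhesion list were higher in mural cells than lower. Among mural cells most differences lay on the pericyte-type side. Of 21 members, 12 were at least 2-fold higher in mural cells than in the rest, against 19.3% of all genes, and Itga5 lower. Against fibroblast cells 9 were higher and 8 lower, where 18.0% and 11.6% of all genes were. Against endothelial cells 9 were higher and 3 lower, where 13.2% and 13.6% of all genes were. The laminin receptor subunit Itga7 was at 264 CPM against 3.17 CPM, the adhesion molecule Mcam (CD146) at 250 CPM against 5.48 CPM, and Vtn, vitronectin, at 303.3 CPM against 14.3 CPM. Col4a1, a chain of collagen IV, was at 1718 CPM in mural cells and 501 CPM in the rest, but at 1269 CPM in endothelial and 1421 CPM in fibroblast cells. Between types it was at 691 CPM in smooth-muscle-type and 2945 CPM in pericyte-type cells, in the same direction in all 6 populations. In total 11 of 21 genes were 2-fold higher in pericyte-type and 3 in smooth-muscle-type cells, against 25.4% and 14.4% of all genes. Among the 11 were Lama2 (33.3 CPM against 266 CPM), Nid1 (126 CPM against 1241 CPM) and Itga1 (544 CPM against 1273 CPM). The 3 genes on the smooth-muscle-type side were Lama5 (200 CPM against 12.4 CPM), Lamb2 (454 CPM against 199 CPM) and Sparcl1 (5507 CPM against 1685 CPM). With cells typed by the larger of both sides, Itga1 (ratio 0.510) and Lamb2 (1.94-fold) came within 2-fold. Without the 61 marked cells the counts were 13 and 3, while those over all genes rose from 2117 to 2801 and from 1200 to 1565.

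Interstitial matrix showed the same division with lower levels than in fibroblasts. Timp3, a matrix-bound inhibitor of metalloproteases, was the highest of the list over the rest, at 5463 CPM against 299.9 CPM, and the only one of 25 genes that was 2-fold higher in mural cells than in fibroblast cells (547 CPM). A further 11 were 2-fold lower than in fibroblasts, where, of all 8113 genes tested, 18.0% were higher and 11.6% lower. Postn was at 3007 CPM in mural cells, 536 CPM in the rest and 1707 CPM in fibroblasts. Fn1 was at 0, 195 and 529 CPM (lowest, median and highest population) in mural cells and at 977, 2928 and 3741 CPM in the rest, without overlap, and Fbn1 at 95.3 CPM against 943 CPM. Of 24 genes, 16 were 2-fold higher in pericyte-type and 5 in smooth-muscle-type cells (3 with gaps filled), against 25.4% and 14.4% of all genes. Collagen VI chain Col6a3 was at 127 CPM in smooth-muscle-type and 1454 CPM in pericyte-type cells, Col3a1 at 399 CPM against 2799.7 CPM, and Postn at 913 CPM against 4921 CPM. Elastin, Eln, the elastic protein of arteries, lay the other way at 234 CPM against 22.7 CPM. Fibroblast markers summed to 254 CPM in smooth-muscle-type and 747 CPM in pericyte-type cells. Col1a1, a member of both lists, made up 85.7 and 536 CPM of these sums. Of the other fibroblast markers, Dcn was at 63.9 and 119 CPM, and Lum and Dpt differed less. Mfap5 (34.6 and 17.6 CPM) and Pdgfra lay the other way. The part of fibroblast markers in the result was not tested. Without the cells that carried fibroblast or endothelial markers, Col3a1 was at 308.3 CPM in smooth-muscle-type and 3135 CPM in pericyte-type cells. In that setting 17 of 24 genes were higher in pericyte-type cells, where the count over all genes rose from 2117 to 2801.

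**Figure D3:**
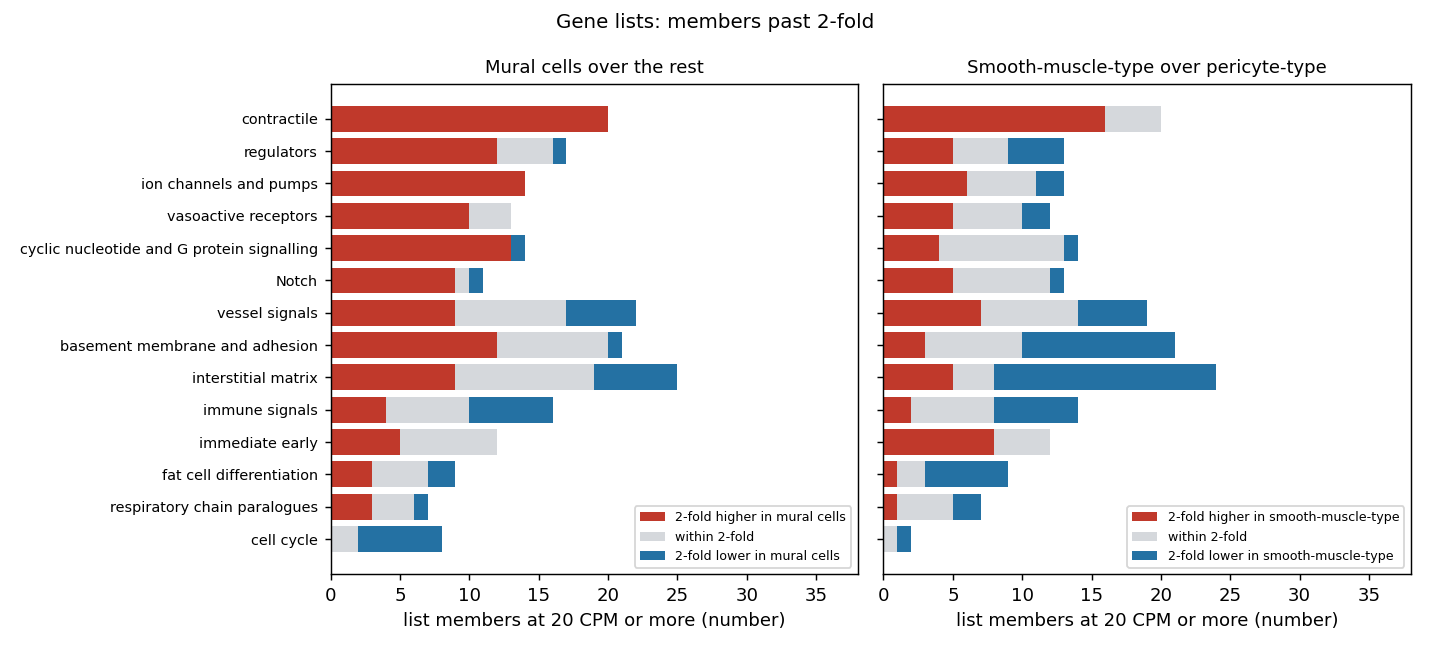
Number of members of each of 14 gene lists at 20 CPM or more that were 2-fold higher (red), within 2-fold (grey) or 2-fold lower (blue), for mural cells over the rest (left panel) and for smooth-muscle-type over pericyte-type cells (right panel). All 20 contractile genes and all 14 ion channels and pumps are red on the left, and on the right 16 of 24 interstitial matrix genes are blue.

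Isoforms of the respiratory chain known from perivascular cells and oxygen-sensing tissues were higher in mural cells, while none of their 3 common forms was 2-fold higher. Ndufa4l2 was at 372, 537 and 854 CPM (lowest, median and highest population) in mural cells and at 6.93, 10.1 and 15.8 CPM in the rest, without overlap. Its common relative Ndufa4 was at 112 CPM in mural cells and 273 CPM in the rest, lower in all 9 populations. Cox4i2, an isoform of a cytochrome c oxidase subunit, was at 139 CPM against 1.60 CPM and its common form Cox4i1 at 506 CPM against 544 CPM. Higd1b was at 359 CPM against 2.87 CPM and Higd1a at 67.5 CPM against 51.1 CPM. The 3 perivascular forms were also above endothelial (56.7, 13.3 and 36.5 CPM for Ndufa4l2, Cox4i2 and Higd1b) and fibroblast cells (17.8, 0.518 and 0.806 CPM). Cox4i2 was at 52.2 CPM in smooth-muscle-type and 276 CPM in pericyte-type cells and Ndufa4l2 at 498 CPM against 644 CPM, within 2-fold.

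Genes of fat cells and lipid handling were split. Fabp4, the fatty acid binding protein of adipocytes and capillaries, was at 9949 CPM in mural cells and 1097 CPM in the rest, below the 19490 CPM of endothelial cells. In cells thinned to 5000 reads, 96.5% of mural cells and 20.95% of T cells held a Fabp4 read, at median depths of 27022 and 15723.5 reads before thinning. Unthinned, the shares were 97.4% and 50.5%. It was at 5898 CPM in smooth-muscle-type and 16224 CPM in pericyte-type cells, and at 3526 and 13419 CPM without the 61 marked cells. Pparg, the regulator of fat cell formation, was at 166 CPM against 38.5 CPM, higher in all 9 populations, and at 205 CPM in endothelial cells. Lpl (530 CPM against 4171 CPM) and Plin2 (371 CPM against 1426 CPM) were lower in mural cells than in the rest, where macrophages held 6781 and 2451 CPM. With every class weighted equally Plin2 was within 2-fold, at a ratio of 0.578. Pericyte-type cells were 2-fold higher than smooth-muscle-type cells for 6 of the 9 genes, 5 with gaps filled, against 25.4% of all genes. Of 4 adipocyte markers Cidec was at 0 in mural cells, and their sum was 33.7 CPM.

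Among immune signals, Il34, a ligand of the receptor Csf1r that maintains macrophages, was higher in mural cells than in every other class. It was at 83.2, 172 and 223 CPM (lowest, median and highest population) in mural cells and at 4.604, 8.53 and 12.8 CPM in the rest. Fibroblasts held 20.6 CPM and endothelial cells 8.84 CPM. The other Csf1r ligand, Csf1, was at 48.3 CPM in mural cells and 99.2 CPM in the rest, a ratio of 0.492 that lost the 2-fold difference in some settings. The receptors Il1r1 (118 CPM against 37.9 CPM) and Osmr (147 CPM against 49.2 CPM) were higher in all 9 populations, though Osmr was at 228 CPM in endothelial cells and 1.79-fold higher with every class weighted equally. The neutrophil attractant Cxcl2 was at 64.3 CPM in mural cells and 1315 CPM in the rest, where macrophages held 2228 CPM. Ccl2 was at 107 CPM in mural cells and 308.95 CPM in the rest, a ratio of 0.349 that came to 0.794 with gaps filled. Of 16 genes, 4 were 2-fold higher in mural cells, against 19.3% of all genes. A further 6 were lower, or 4 with gaps filled, where 1269 of all 8461 genes tested were 2-fold lower.

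Immediate early genes, which enzymatic digestion can switch on, differed by type. Of 12 members, 5 were 2-fold higher in mural cells than in the rest, against 19.3% of all genes. Between types, 8 were 2-fold higher in smooth-muscle-type cells (6 with gaps filled, 10 without the 61 marked cells), against 14.4% of all genes. Without the marked cells the count over all genes also rose, from 1200 to 1565. Atf3 was at 3604 CPM in smooth-muscle-type and 788 CPM in pericyte-type cells, Nr4a1 at 1185 CPM against 214 CPM, and Fosb at 2353 CPM against 1021 CPM, which came to 1.83-fold with cells typed by the larger of both sides. The share of mitochondrial reads was also higher in smooth-muscle-type cells (8.01% against 5.05%), and its part in these differences was not tested. Of the cell cycle genes, Mki67 was at 23.1 CPM in mural cells against 70.2 CPM in the rest and Top2a at 21.9 CPM against 47.1 CPM. Mki67, Top2a and Stmn1 have no low values in the table, and with gaps filled each of the 3 was above the rest, so no direction is given.

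Of the 20 genes with the highest ratio of mural cells over the rest, among genes with at least 6 reads in 25% of mural cells, 6 belonged to the rule. Among the others, Olfr558, an odorant receptor gene, was at 321 CPM in mural cells and 1.503 CPM in the rest, with 168 to 459 CPM over the populations of mural cells and at most 3.39 CPM in those of the rest. Nrip2 was at 248 CPM against 1.27 CPM and Trarg1, which is known for a part in glucose transporter traffic in fat cells, at 308.8 CPM against 3.93 CPM. Gipr (chr7:19156061-19166127, minus strand), the receptor of the gut hormone GIP, led the pericyte-type genes outside typing. It was at 16.6, 118 and 291 CPM (lowest, median and highest population) in mural cells and at no more than 1.39 CPM in any population of the rest. A single read was seen in smooth-muscle-type cells, 0.326 CPM (Poisson 95% interval 0.00825 to 1.82), against 285 CPM (258 to 315.1) in pericyte-type cells and 269 CPM in cells with both sides on. In thinned cells, 28.3% of pericyte-type and none of the 95 smooth-muscle-type cells held a Gipr read. Enpep, the aminopeptidase that trims angiotensin II, was at 33.9 CPM in smooth-muscle-type and 513 CPM in pericyte-type cells, Vstm4 at 30.0 CPM against 367 CPM and the ion transporter Slc12a2 at 25.4 CPM against 250 CPM. On the smooth-muscle-type side, Rergl was at 218 CPM against 0, Sorbs2 at 771 CPM against 16.1 CPM and Pdlim3 at 346 CPM against 7.32 CPM, the last 2 being genes of actin filaments and Z-discs.

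**Figure D4:**
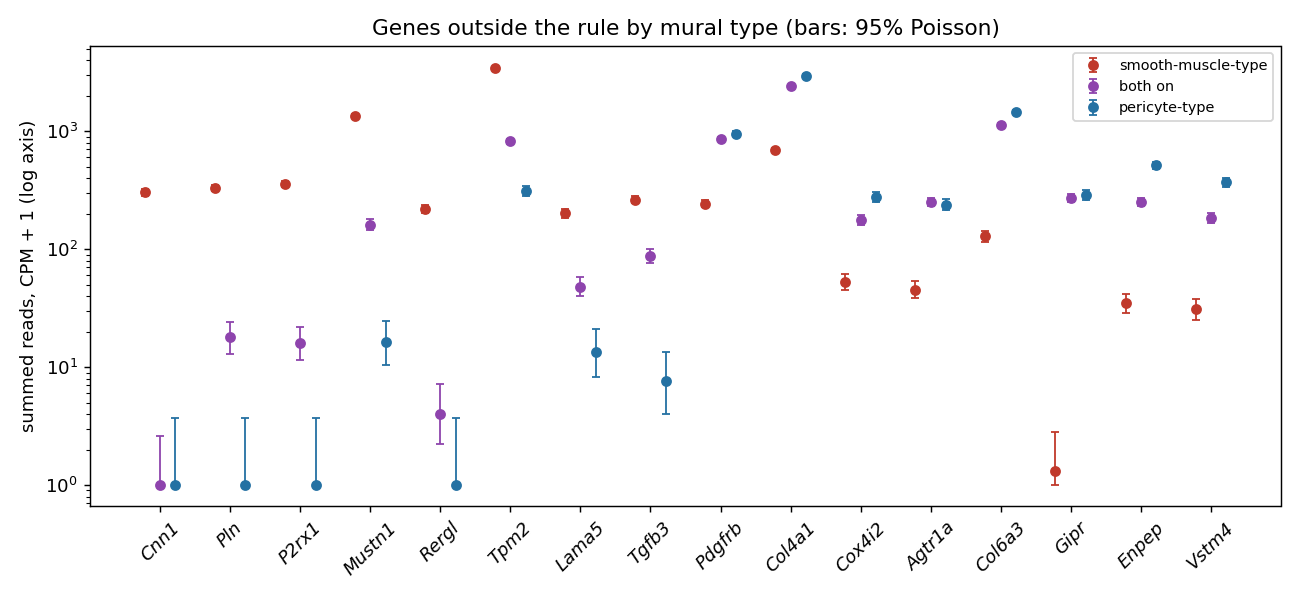
Summed level (CPM + 1, log axis) of 16 genes outside the rule in smooth-muscle-type cells (red, left), cells with both sides on (purple, middle) and pericyte-type cells (blue, right), with 95% Poisson intervals for counting error. Cnn1, Pln, P2rx1 and Rergl are at 0 in pericyte-type cells, and Gipr is at 0.326 CPM in smooth-muscle-type cells against 285 CPM in pericyte-type cells.

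Cells with both sides on lay between the types, closer to the pericyte-type for the genes that marked it. Of 709 genes at least 4-fold higher in pericyte-type cells, the level in cells with both sides on was nearer on the log scale to the pericyte-type for 477 (67.3%). Of 521 genes at least 4-fold higher in smooth-muscle-type cells, it was nearer to the pericyte-type for 210 (40.3%). Gipr (269 CPM), Agtr1a (252 CPM) and Pdgfrb (861 CPM) were at pericyte-type levels in these cells, while Cnn1 was at 0 and Rergl at 3.03 CPM. Tpm2 (822 CPM) and Mustn1 (161 CPM) were between.

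Clustering without the 9 rule genes and mitochondrial genes gave 4 clusters of mural cells, which are described by their leading genes. Cluster 1 (102 cells) held 44 of the 53 pericyte-type cells and 46 of the 74 with both sides on, and was led by Gipr (352 CPM against 18.4 CPM in the other mural cells). Cluster 2 (65 cells) held 61 of the 95 smooth-muscle-type cells and was led by Pln (460 CPM against 0.864 CPM), with Cnn1 at 383 CPM against 13.8 CPM. Cluster 3 (34 cells) held 13 smooth-muscle-type cells and 17 with both sides on. It was led by the chemokine gene Ccl19 (254 CPM against 11.6 CPM), Id4 (812 CPM against 48.6 CPM), the activin antagonist Fst (269 CPM against 17.01 CPM) and the lectin gene Colec11 (383 CPM against 25.8 CPM), with Eln at 775 CPM against 110 CPM and Acta2 at 5388 CPM. Its smooth muscle markers outside the rule summed to 12988 CPM, between 24596 CPM in cluster 2 and 4954 CPM in cluster 1. Cluster 4 (28 cells) was led by endothelial genes, with Lrg1 and Selp at 659 and 248 CPM and at 0 in the other mural cells, and Plvap at 895 CPM against 3.51 CPM. All 28 cells had at least 2 of the endothelial markers on, and these make up most of the 32 such cells. Their median was 37413.5 reads, against 22590 in cluster 1, 34316 in cluster 2 and 19944.5 in cluster 3. Scrublet, a doublet caller, marked 233 of the 10521 cells (2.21%) and 1 mural cell, in cluster 1.

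The share of mural cells differed between hashtag populations within wide intervals. It ran from 1.36% of 1472 cells in A0309 (95% interval 0.832 to 2.09) to 3.49% of 1059 cells in A0303 (2.47 to 4.78), with a median of 1.89%. Per 100 endothelial cells there were 15.04 mural cells in A0309 and 37.9 in A0302. The smooth-muscle-type share ran from 25.8% of 31 mural cells in A0308 (11.9 to 44.6) to 68.2% of 22 in A0301 (45.1 to 86.1), and the pericyte-type share from 4.55% in A0301, a single cell, to 32.3% in A0308. Mural cells carried few tag counts, with a median of 90 per cell against 707 over the kept cells, and the called tag was the highest in 89.5% of them. Fibroblasts carried fewer still, with a median of 47 and the called tag highest in 83.9%. A clear tag, with at least 10 counts and 2/3 of them from the called tag, was present in 130 of the 229. Among cells with a clear tag the mural share ran from 0.714% (A0307) to 3.61% (A0303). These cells are another mix of types, since 35.4% of fibroblasts and 96.1% of macrophages had at least 10 counts with 2/3 from 1 tag. The highest share lay in A0303 by both counts, and the lowest in A0309 by one and in A0307 by the other.

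**Figure D5:**
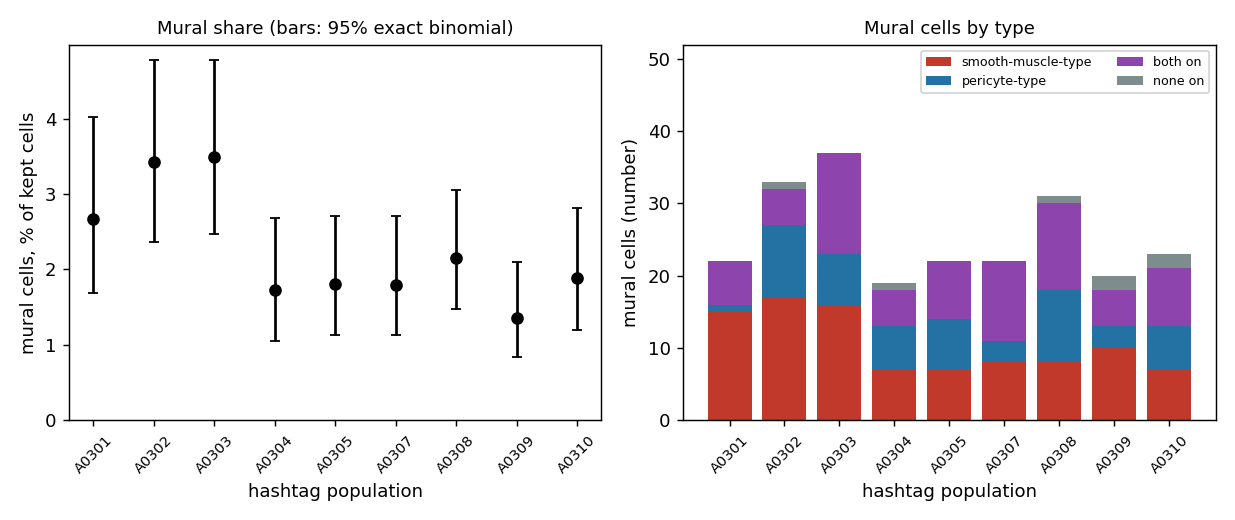
Left, mural cells as percent of kept cells in each hashtag population with exact binomial 95% intervals. Right, number of mural cells by type, stacked, in the same populations. Shares run from 1.36% in A0309 to 3.49% in A0303, and A0301 holds 15 smooth-muscle-type cells and 1 pericyte-type cell.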

How the data were processed

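The deposited file is a table of whole-number counts per gene and cell from a pooled BD Rhapsody whole-transcriptome library (TAS-Seq, per the labels), with 29417 genes and 12040 cells; a second deposited table holds hashtag counts per barcode. Per the submitters' processing notes, cutadapt 2.10, Bowtie2 2.4.2, R 3.6.3 and the GRCm38 build were used. No collapse of molecular identifiers is recorded in the sources used here, so the counts are called reads. Reads that are copies of 1 molecule are not independent, and the intervals cover counting error only. The column names carry the hashtag call: 11750 cells had 1 hashtag, 278 were called doublets, and 12 columns without a sample were not used.

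Of the 11750 cells, 1229 had over 25% mitochondrial reads and 10521 were kept. Reads were summed over the cells of a class and given as CPM; ratios used a pseudocount of 1 CPM, a limit of 2-fold and a minimum of 20 CPM in 1 class. Other classes were set by marker rules: 889 endothelial, 3210 fibroblast, 3348 macrophage, 312 mesothelial and 420 T cells. A gene was called on at 100 CPM and detected at 6 reads. Cells were thinned to 5000 reads for shares of cells with a read. The steps were tested on simulated data. Python 3.11.15, numpy 2.4.6, scipy 1.17.1, pandas 2.3.3 and scanpy 1.11.5 (Leiden clustering, Scrublet) were used, and doublets called by Scrublet were left in. Gene positions came from GENCODE M21 and promoters from RefSeq on GRCm38.p6.

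With 1 pool there was no replicate, and no test was made. Named genes were the 9 rule genes, the 4 highest and 2 lowest members of each list over the rest, list members 2-fold different between types, and the genes of highest ratio (20 over the rest, 15 in each direction between types) with at least 50 CPM and at least 6 reads in 25% of the cells of the higher class. A few list members are not reported here by name. The members and the gene lists were chosen with earlier results of these data known. Alternatives changed the limits of the rule, the summary of reads, the pseudocount, the minimum, the makeup of the rest, the typing, doublets and single hashtag populations; leaving out members with endothelial or fibroblast markers was added after the data were seen.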

Additional observations from a re-analysis of the deposited data

Results flagged for a closer look

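Among the cells whose hashtag call was a doublet, which entered no comparison, 254 had at most 25% mitochondrial reads and 11 of these had at least 4 of the 9 mural genes on. Of those, 8 cells met the full rule for mural cells, 3.15% of the 254. The mural share of the kept cells, from the same pool, was 2.18% (95% interval 1.91 to 2.47). The 8 cells were flagged because the mural signal appears in cells outside the measurement, and they were not added to the 229 members. Whether the shares differ was not tested.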

How the results depend on the processing

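The mural share of 2.18% was 1.72% with at least 5 marker genes on, 1.74% and 2.55% with the limit on other cell types at 200 and 1000 CPM, and 1.61% without members carrying endothelial or fibroblast markers. The smooth-muscle-type share of 41.5% was 55.9% when each cell was typed by the larger of both sides. Of the counts over the rest, 1632 genes higher and 1269 lower in mural cells, a minimum of 50 CPM left 961 and 764, no minimum gave 3108 and 2812, and a rest in which 5 classes weighed equally gave 1066 higher. Leaving out 1 hashtag population at a time gave a mural share of 2.03% to 2.31%, a smooth-muscle-type share of 38.6% to 43.9%, 1600 to 1776 genes higher and 1259 to 1299 lower in mural cells, 1208 to 1360 genes higher in smooth-muscle-type and 2138 to 2325 higher in pericyte-type cells.

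Some genes changed direction, and except where filled gaps show the cause by construction, the cause was not tested. Over the rest, the mean of per-cell CPM gave ratios of 0.972 for Npr3 and 0.736 for Dll4, thinning gave 0.703 for Dll4, equal weights gave 0.728 for Npr3, 0.504 for Dll4 and 0.887 for Gbp7, and leaving out marked members gave 0.188 for Dll4. Filled gaps gave 1.01 for Lox, 1.40 for Top2a, 1.12 for Stmn1 and 1.22 for Mki67. Between types, the mean of per-cell CPM gave 1.20 for Cxcl2, filled gaps 0.872 and typing by the larger side 0.651 for Rgs2, and thinning 0.933 for Dll4. Leaving out marked members gave 0.527 for Npr3, 0.766 for Hey1, 1.73 for Cxcl2 and 6.28 for Top2a, and leaving out 1 hashtag population at a time gave 0.372 to 1.29 for Cxcl2 (the highest without A0302) and 0.0642 to 5.33 for Top2a (the highest without A0308). Of the 149 named genes past 2-fold over the rest, 20 came within it with equal weights and at most 10 in any other setting; of the 156 between types, 28 did with typing by the larger side and at most 19 in any other setting.

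No paired analysis was possible because the series holds 1 pool and the hashtag populations carry no group. Depth limits the pericyte-type values most: 53 cells held 1366931 reads, so that 3 reads are 2.19 CPM, against 0.978 CPM in smooth-muscle-type cells. Values below 6 to 8 reads are missing for several genes, and most mural cells carried few hashtag counts.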
